A study of Mus musculus with 12 samples.

Results

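The Mdmx transgene was present on a Wild-type background and on a background without the upstream regulatory element of Pu.1, and its effect was compared between the 2 backgrounds. The comparison is a 2 by 2 design that uses 12 of the 12 libraries of the study, 3 per genotype. For each gene, the log2 change from Pu.1-URE-/- to Mdmx-Tg/Pu.1-URE-/- was set against the log2 change from Wild-type to Mdmx-Tg. The difference of these changes is called the interaction below, and 0 means that the transgene multiplied the level by the same factor in both backgrounds.

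All groups are mouse bone marrow cells sorted as Flk2-negative Lin-Sca-1+Kit+ cells, the compartment of blood stem cells and the earliest progenitors. Wild-type animals carried neither change, and Mdmx-Tg animals carried extra MDMX, the protein of Mdm4, from a transgene. Pu.1-URE-/- animals lacked the upstream regulatory element (URE) that controls Spi1, which encodes PU.1, and the Mdmx-Tg/Pu.1-URE-/- animals, called the double mutant, had both changes. Each library had a mouse number of its own, while the age of the animals and the promoter of the transgene are not given in the sources used here.

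PU.1 is an ETS-family transcription factor that directs myeloid and lymphoid differentiation, and its upstream element is an enhancer needed for its normal level in stem and progenitor cells. MDMX binds p53 and holds its activity down together with MDM2, and the deposited title of the series places it at the step from a preleukaemic state to acute myeloid leukaemia. Where both changes act on a gene independently, their folds multiply, which gives an interaction of 0 on the log scale.

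Libraries held 47271286 to 55067735 estimated reads, and levels are given in CPM, which are read counts scaled to a common library size and composition. Of 20696 genes with a read, 15012 had enough reads to be tested. Kit, the receptor used in the sort, stood at 165 to 328 CPM in the 12 libraries, and Ly6a, which encodes Sca-1, stood at 29.7 to 97.2 CPM in 11 libraries and lower in Wild-type 3. Flt3, which encodes Flk2, stood at 7.06 to 13.6 CPM across Wild-type, 5.83 to 22.2 across Mdmx-Tg, 10.8 to 51.9 across Pu.1-URE-/- and 35.6 to 53.7 across the double mutant. Immunoglobulin genes took 0.427% to 31.2% of the reads in Wild-type, 3.79% to 10.6% across Mdmx-Tg, 0.573% to 3.07% across Pu.1-URE-/- and 0.131% to 4.13% across the double mutant. Genes of the Y chromosome had 199.95 to 222 CPM in Wild-type 2 and in double mutant 1 and 3, while the remaining libraries had 1.88 to 5.70 CPM. Sex was therefore unequal over the 4 genotypes. High Y-linked reads were found only in the genotypes that are added in the interaction, and not in those that are subtracted. A gene that differs by sex alone can thus show an interaction. The part of sex in the results was not tested beyond the alternatives listed at the end.

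No gene passed the test of the interaction. With edgeR's quasi-likelihood test, 0 of 15012 genes (0%) had a Benjamini-Hochberg adjusted p below 0.05, and the smallest adjusted p was 0.680. At an unadjusted p below 0.05 there were 871 genes (5.8%), 425 above 0 (2.83%) and 446 below 0 (2.97%), where 5% would pass with no difference at all. At an unadjusted p below 0.01 there were 177 genes (1.18%), 89 above 0 (0.593%) and 88 below 0 (0.586%), where 1% would pass. DESeq2 called 194 genes (1.29%), 86 above 0 (0.573%) and 108 below 0 (0.719%), and limma-voom called 0. Of those 194 genes, 130 had a genotype without a single read, and 118 had an unadjusted edgeR p below 0.05. Reads in every genotype and a mean log2 CPM no lower than 1 were found in 58 of them.

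The 2 transgene effects taken alone also gave no call by edgeR. From Wild-type to Mdmx-Tg 0 genes passed, with 1576 (10.5%) at an unadjusted p below 0.05 and 329 (2.19%) by DESeq2. Without Mdmx-Tg 3, 109 genes passed in that comparison. From Pu.1-URE-/- to the double mutant 0 genes passed, with 1601 (10.7%) at an unadjusted p below 0.05 and 329 (2.19%) by DESeq2. The 2 effects share no library. Over the 11494 genes with a mean log2 CPM no lower than 1, they correlated with a Pearson r of 0.15 and a Spearman rho of 0.32 across genes, which are not independent replicates. In 4285 of these genes (37.3%) the effects had opposite signs.

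**Figure D1:**
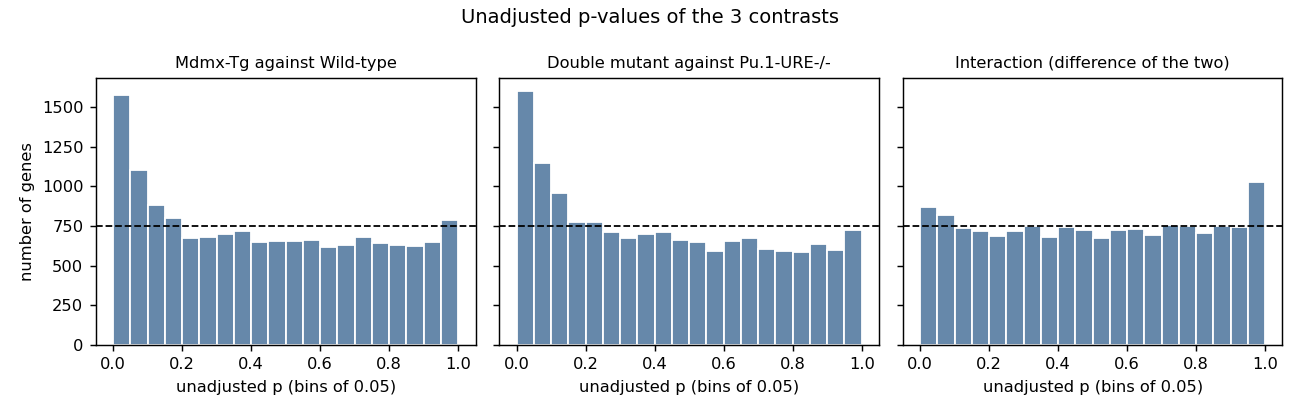
Number of genes (vertical axis) by unadjusted edgeR p in bins of 0.05 (horizontal axis) for Mdmx-Tg against Wild-type, the double mutant against Pu.1-URE-/-, and the interaction. The dashed line is the height an even spread of p-values would give. The lowest bin holds 1576 and 1601 genes for the 2 transgene effects and 871 for the interaction.

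The spread between libraries sets how large an interaction can be seen. The biological coefficient of variation was 0.80, and libraries of 1 genotype correlated at 0.85 to 0.91. The 95% interval of the interaction reached a median of 1.64 to either side on the log2 scale over all tested genes. Over the 5397 genes with a mean log2 CPM above 5 it was 0.84. These intervals are not adjusted for the number of genes tested, so they are not a detection limit of the adjusted edgeR test. For example, Cebpa, described below, had a log2 interaction of -3.10 and still did not pass it with 3 libraries per genotype.

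Few genes separated all libraries in opposite directions. In 70 genes (0.466%) the transgenic libraries did not overlap the others in either background and lay on opposite sides: 32 higher in Mdmx-Tg and lower in the double mutant (0.213%), and 38 the reverse (0.253%). In 473 genes (3.15%) the transgenic libraries lay on the same side in both backgrounds, 244 higher (1.63%) and 229 lower (1.53%). In single backgrounds, 2051 genes (13.7%) separated Mdmx-Tg from Wild-type and 2829 (18.8%) separated the double mutant from Pu.1-URE-/-. With 3 libraries per genotype, some genes separate with no difference at all. That share was not computed, so these counts describe these libraries only.

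Genes were then grouped by the shape of the difference. The genes used were the 119 with an unadjusted edgeR interaction p below 0.01 and a mean log2 CPM no lower than 1. They came from 11494 genes at that level, of which 1% would pass that p with no difference at all. Their number was near that share. These 119 genes were sorted by their fitted transgene effects, where 1.5-fold counted as present and 2-fold as large. Opposite effects were found in 46 genes (0.306% of all tested), 29 of them higher with the transgene in the Wild-type background and lower in Pu.1-URE-/-, and 17 the reverse. In 23 genes (0.153%) a large effect in the Wild-type background was absent in Pu.1-URE-/-, here called masked. In 20 genes (0.133%) a large effect was seen in Pu.1-URE-/- alone, here called unmasked. The effect had the same sign and was larger in Pu.1-URE-/- in 5 genes (0.0333%), or smaller there in 5 genes (0.0333%), and 20 genes (0.133%) fitted none of these shapes. These genes did not pass the adjusted edgeR test, so the groups describe these libraries. On the linear CPM scale, which compares differences in place of folds, the interaction kept its sign in 22 of the 23 masked and 18 of the 20 unmasked genes. The rule for opposite effects fixes that sign, so it was not counted there. The rules for masked and unmasked genes favour it too, as they ask for a large effect in 1 background only. Those counts are therefore no separate support. The interaction kept its sign in 1 of the 5 genes with a larger and in 0 of the 5 with a smaller effect in Pu.1-URE-/-. The counts depended on single libraries: there were 116 opposite genes without Wild-type 1, 90 without Mdmx-Tg 3 and 72 without double mutant 1. Masked genes numbered 102 without Mdmx-Tg 3 and 11 to 15 without any 1 of the libraries that lack the element, double mutant 1 apart. There was 1 masked gene with a block by mouse number series, 8 with Y-linked expression as a covariate and 3 without the libraries with high Y-linked reads.

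**Figure D2:**
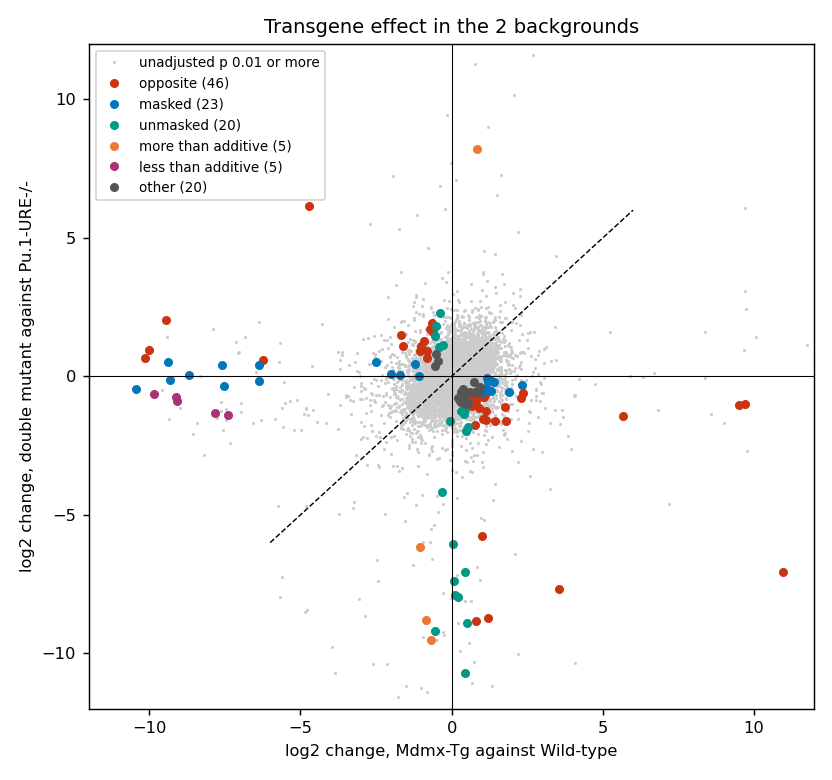
Fitted log2 change from Wild-type to Mdmx-Tg (horizontal axis) against that from Pu.1-URE-/- to the double mutant (vertical axis), 1 point per gene with a mean log2 CPM no lower than 1. Coloured points are the 119 genes with an unadjusted interaction p below 0.01, by shape, and the dashed diagonal marks equal effects. The 46 opposite genes belong to the upper left and lower right, though those with the largest effects, such as Ighg1, fall outside the axes. Points beyond about 6 on either axis mostly have a genotype with few or no reads.

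The leading gene with opposite effects and reads in every genotype was Cebpa (chromosome 7, 35119293 to 35121928, plus strand, GRCm38), which encodes the C/EBP-alpha transcription factor that starts granulocyte differentiation. Promoter sequences are shown for 5 genes so that the letters upstream of the genes discussed can be read beside their levels: Cebpa and Cited2 for opposite effects, Vcl and Cpa3 for effects seen in Pu.1-URE-/- alone, and Axl as a gene whose window holds the core of the PU.1 binding motif. Each is the 250 bases before the RefSeq start in GRCm38.p6, read 5′ to 3′ on the gene's strand, at chr7:35119043-35119292 (plus), chr10:17722978-17723227 (plus), chr14:20929148-20929397 (plus), chr3:20242182-20242431 (minus) and chr7:25788734-25788983 (minus). Capitals mark GAGGAAG or its reverse complement CTTCCTC.
Cebpa: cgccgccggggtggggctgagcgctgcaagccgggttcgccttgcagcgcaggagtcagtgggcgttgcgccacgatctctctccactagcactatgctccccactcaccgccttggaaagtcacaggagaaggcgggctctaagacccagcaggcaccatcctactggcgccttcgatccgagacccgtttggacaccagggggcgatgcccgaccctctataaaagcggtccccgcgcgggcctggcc
Cited2: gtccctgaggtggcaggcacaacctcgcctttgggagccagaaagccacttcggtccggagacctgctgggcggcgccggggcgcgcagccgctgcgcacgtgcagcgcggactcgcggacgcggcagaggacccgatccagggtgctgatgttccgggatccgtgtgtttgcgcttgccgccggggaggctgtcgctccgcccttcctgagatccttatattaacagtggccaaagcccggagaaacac
Vcl: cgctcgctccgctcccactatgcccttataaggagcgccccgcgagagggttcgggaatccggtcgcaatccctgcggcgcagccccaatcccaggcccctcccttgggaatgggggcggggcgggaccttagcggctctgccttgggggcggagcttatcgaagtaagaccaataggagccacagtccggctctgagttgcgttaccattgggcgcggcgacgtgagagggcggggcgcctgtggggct
Cpa3: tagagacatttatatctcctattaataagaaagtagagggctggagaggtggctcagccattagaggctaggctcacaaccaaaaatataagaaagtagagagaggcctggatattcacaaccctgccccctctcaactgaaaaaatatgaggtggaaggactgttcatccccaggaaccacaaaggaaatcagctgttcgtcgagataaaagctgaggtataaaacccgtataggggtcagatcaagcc
Axl: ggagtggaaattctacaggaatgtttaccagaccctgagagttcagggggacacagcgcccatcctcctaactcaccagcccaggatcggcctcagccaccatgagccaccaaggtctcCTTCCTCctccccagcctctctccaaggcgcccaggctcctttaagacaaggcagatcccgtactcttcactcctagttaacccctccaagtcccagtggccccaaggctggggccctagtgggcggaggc
Of 32851 promoter windows in the table, 3486 (10.6%) held GAGGAAG on either strand, as did those of 1373 of the 10607 tested genes that could be matched (12.9%). Among the 65 genes named by rule, 44 were matched and 7 held it (15.9%): Axl, Acsl6, Adcy3, Alas2, Cd5, Prtn3 and Tubb1. In Axl the motif begins 131 bases before the start. A match is a run of letters and not a measured binding site.

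Cebpa stood at 2.17, 1.25 and 1.19 CPM in the 3 Wild-type libraries and at 6.30, 9.05 and 7.48 CPM in the 3 Mdmx-Tg libraries. In Pu.1-URE-/- it stood at 38.3, 23.8 and 41.1 CPM, and in the double mutant at 29.9, 17.3 and 12.4 CPM. All Mdmx-Tg libraries were above all Wild-type libraries, while Pu.1-URE-/- and the double mutant overlapped through double mutant 1 and Pu.1-URE-/- 2. The mean was 4.95-fold higher with the transgene in the Wild-type background and 1.73-fold lower in Pu.1-URE-/-. The log2 interaction was -3.10 ± 0.59 (SE; 95% interval -4.40 to -1.80), with an unadjusted p of 0.000265 and an adjusted p of 0.680 by edgeR, and an adjusted p of 0.000132 by DESeq2. Had both single folds multiplied, the double mutant would have stood at 170 CPM, against a measured 19.9 ± 9.04 CPM (SD, n = 3). Over 24 alternative settings the value lay between -3.54 and -2.72. Within the 1 series of mouse numbers that holds a library of every genotype it was -1.88, a value with no test. In such bulk samples, fewer cells of a type and less RNA per cell cannot be told apart.

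Cited2, a partner of the coactivators CBP and p300 that stem cells need for their maintenance, separated the genotypes fully (chromosome 10, 17723218 to 17725674). Its levels were 9.87, 6.24 and 7.77 CPM in the Wild-type libraries and 20.4, 14.7 and 14.6 CPM in Mdmx-Tg. Without the element they were 44.5, 39.2 and 55.6 CPM, and with both changes 33.7, 22.02 and 26.8 CPM. The transgenic libraries were the higher ones in the Wild-type background and the lower ones in Pu.1-URE-/-, with no overlap in either. The log2 effects were 1.06 and -0.76, and the interaction was -1.81 ± 0.40 (SE), with unadjusted p = 0.000788 and adjusted p = 0.767 by edgeR and adjusted p = 0.00300 by DESeq2. A level of 96.5 CPM would follow from the product of the single folds, against 27.5 ± 5.85 CPM measured.

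Cemip2, which encodes a membrane protein, had the same shape. It stood at 1.83, 0.998 and 1.01 CPM across Wild-type, 6.23, 10.01 and 3.52 CPM across Mdmx-Tg, 56.0, 25.4 and 35.7 CPM in Pu.1-URE-/-, and 26.1, 20.7 and 30.2 CPM in the double mutant. Mdmx-Tg lay wholly above Wild-type, and the double mutant overlapped Pu.1-URE-/-. Its log2 interaction was -2.97 ± 0.64 (SE; edgeR unadjusted p = 0.000692).

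Tmem184c and Sp4 had the reverse shape, lower with the transgene in the Wild-type background and higher in Pu.1-URE-/-. Tmem184c, a gene for a membrane protein, stood at 24.5, 26.4 and 14.6 CPM in the Wild-type libraries and 11.8, 12.2 and 13.2 CPM in Mdmx-Tg. It stood at 25.0, 26.2 and 26.3 CPM in Pu.1-URE-/- and 42.7, 43.8 and 59.1 CPM in the double mutant. No library overlapped in either background, although Wild-type 3 lay close to Mdmx-Tg. The log2 interaction was 1.73 ± 0.37 (SE; edgeR unadjusted p = 0.000623, DESeq2 adjusted p = 0.00504). Sp4, a zinc-finger factor of the Sp family, stood at 19.4, 23.3 and 14.3 CPM across Wild-type, 11.6, 15.7 and 9.99 CPM across Mdmx-Tg, 5.21, 4.49 and 8.71 CPM in Pu.1-URE-/-, and 15.9, 17.0 and 23.0 CPM in the double mutant. The double mutant lay above Pu.1-URE-/- in all 3 libraries and back within the Wild-type range, while Mdmx-Tg and Wild-type overlapped (interaction 2.21 ± 0.53, SE; edgeR unadjusted p = 0.00152).

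Cdkn1c, which encodes the cell cycle inhibitor p57 of resting stem cells, was the sixth gene with opposite effects. It stood at 3.09, 1.54 and 2.66 CPM across Wild-type, 10.6, 3.08 and 3.17 CPM across Mdmx-Tg, and 0.695, 1.51 and 0.749 CPM across Pu.1-URE-/-, and had no read in the 3 double-mutant libraries. A genotype without reads was set at 3 reads for the whole group, used here as a bound for counting error alone. It leaves out the spread between animals, so each fold given as at least a value holds on that bound only. On that bound Cdkn1c was at least 51.8-fold lower in the double mutant than in Pu.1-URE-/-. The higher mean of Mdmx-Tg came from Mdmx-Tg 1. By edgeR the unadjusted p was 0.000140, and by DESeq2 the adjusted p was 2.1e-05.

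**Figure D3:**
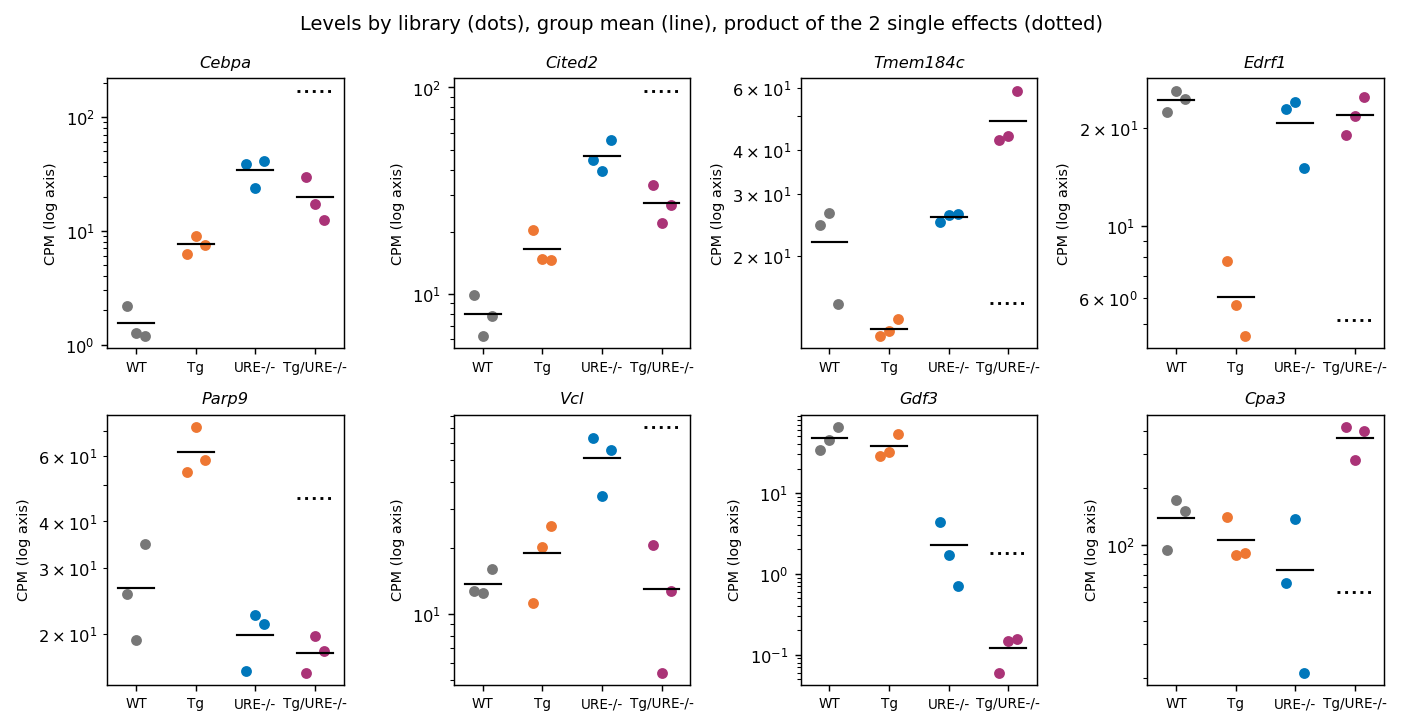
Levels of 8 genes in CPM (vertical log axis) by genotype, with WT for Wild-type, Tg for Mdmx-Tg, URE-/- for Pu.1-URE-/- and Tg/URE-/- for the double mutant. Dots are libraries, solid lines are means of 3, and the dotted line is the double-mutant level that the product of the single folds gives. For Cebpa and Cited2 all 3 double-mutant dots lie below the dotted line, and for Tmem184c, Edrf1 and Cpa3 all 3 lie above it.

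Masked effects were led by Edrf1 among genes with reads in every genotype. Edrf1, named for its part in erythroid differentiation, stood at 22.5, 26.1 and 24.6 CPM in the Wild-type libraries and at 7.82, 5.73 and 4.59 CPM in Mdmx-Tg. In Pu.1-URE-/- it stood at 22.9, 24.1 and 15.1 CPM, and in the double mutant at 19.1, 21.8 and 24.9 CPM. Mdmx-Tg was 4.03-fold lower than Wild-type with a wide gap, and the other 3 genotypes overlapped. The log2 effects were -2.01 and 0.08, and the interaction was 2.09 ± 0.43 (SE; 95% interval 1.16 to 3.03; edgeR unadjusted p = 0.000453, DESeq2 adjusted p = 0.00101).

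Parp9 and Extl2 were 2.32-fold higher with the transgene in the Wild-type background and 1.12-fold and 1.13-fold lower in Pu.1-URE-/-. Parp9, an ADP-ribosyltransferase family member of interferon signalling, stood at 25.5, 19.2 and 34.8 CPM across Wild-type, 54.4, 71.5 and 58.7 CPM across Mdmx-Tg, 15.9, 22.5 and 21.2 CPM in Pu.1-URE-/-, and 15.7, 19.7 and 17.9 CPM in the double mutant. All 3 Mdmx-Tg libraries were above the other 9, and the interaction was -1.38 ± 0.37 (SE; edgeR unadjusted p = 0.00326). Extl2, a glycosyltransferase of the heparan sulfate pathway, stood at 17.1, 14.5 and 17.2 CPM in the Wild-type libraries and 36.5, 39.1 and 37.9 CPM in Mdmx-Tg. It stood at 24.6, 18.6 and 37.8 CPM in Pu.1-URE-/- and 25.3, 24.0 and 22.3 CPM in the double mutant, where the libraries overlapped through Pu.1-URE-/- 1 and 2. Its interaction was -1.39 ± 0.37 (SE; edgeR unadjusted p = 0.00332).

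The other masked genes named by rule were low. Ifitm10 and Tesmin had no read in Mdmx-Tg and were at least 54.98-fold and 83.3-fold lower there than in Wild-type, where they stood at 0.497 to 1.45 CPM and 0.181 to 2.36 CPM. Both had reads in every library without the element, 3.999 to 26.5 CPM for Ifitm10 and 0.528 to 5.67 CPM for Tesmin. Kctd21 had 4 reads over Mdmx-Tg and 1.67 to 2.597 CPM in Wild-type.

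In the Pu.1-URE-/- background alone, Gdf3, a ligand of the TGF-beta family, had the smallest unadjusted p. Its levels were 34.0, 44.9 and 64.5 CPM in the Wild-type libraries and 28.6, 32.3 and 52.98 CPM across Mdmx-Tg, which overlapped. Pu.1-URE-/- had 4.42, 1.71 and 0.710 CPM. Double-mutant levels were 0.0603, 0.149 and 0.159 CPM, below every Pu.1-URE-/- library. The mean was 18.6-fold lower in the double mutant than in Pu.1-URE-/-, against 1.26-fold lower in Mdmx-Tg than in Wild-type. The log2 interaction was -3.85 ± 0.87 (SE; edgeR unadjusted p = 0.00101, DESeq2 adjusted p = 0.00220). On the linear CPM scale the interaction was 7.66 CPM, above 0, since the absolute difference was larger in the Wild-type background.

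Vcl, which encodes the adhesion linker vinculin, stood at 12.7, 12.5 and 16.1 CPM across Wild-type, 11.2, 20.3 and 25.3 CPM across Mdmx-Tg, 63.4, 34.5 and 56.0 CPM in Pu.1-URE-/-, and 20.7, 5.43 and 12.8 CPM in the double mutant. All 3 double-mutant libraries lay below Pu.1-URE-/-, and 1 of them lay below every other library. The log2 effects were 0.46 and -1.99 (interaction -2.45 ± 0.66, SE; edgeR unadjusted p = 0.00333).

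Cpa3, the carboxypeptidase of mast cells and their progenitors, differed the other way. It stood at 93.7, 172 and 151 CPM across Wild-type, 140, 88.8 and 91.2 CPM across Mdmx-Tg, 62.9, 138 and 21.4 CPM in Pu.1-URE-/-, and 416, 280 and 398 CPM in the double mutant. The 3 double-mutant libraries were above the other 9. The mean was 4.93-fold higher in the double mutant than in Pu.1-URE-/-, and the interaction was 2.68 ± 0.74 (SE; 95% interval 1.06 to 4.30; edgeR unadjusted p = 0.00384, DESeq2 adjusted p = 0.0128). Beside it, the 19 listed mast cell and basophil genes together took 0.0872% to 0.145% of the reads in Wild-type, 0.110% to 0.134% across Mdmx-Tg, 0.137% to 0.169% across Pu.1-URE-/- and 0.124% to 0.226% across the double mutant. Of their 17 tested members, 12 had an interaction above 0 and Cpa3 alone had an unadjusted p below 0.05.

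The remaining unmasked genes named by rule were nearly or wholly without reads in the double mutant. Acsl6, an acyl-CoA synthetase, stood at 0.887 to 4.74 CPM across Pu.1-URE-/- against 0 to 0.0804 CPM across the double mutant, a 70.4-fold lower mean, while Wild-type (2.30 to 8.96 CPM) and Mdmx-Tg (2.63 to 9.74 CPM) overlapped. Tnfrsf13c, the BAFF receptor of B cells, had no read in the double mutant and was at least 72.2-fold lower than in Pu.1-URE-/- (0.961 to 1.83 CPM). In Wild-type it ran from 1.96 to 31.8 CPM, with Wild-type 1, the library richest in immunoglobulin reads, highest. Sh3tc2 had 2 reads over the double mutant and 0.0394 to 5.88 CPM in Pu.1-URE-/-.

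Genes lower with the transgene in both backgrounds, and more so in Pu.1-URE-/-, were Paqr9, Fgf11 and Zcchc18. Paqr9, a receptor of the adiponectin and progestin family, stood at 10.9, 23.7 and 25.1 CPM across Wild-type, 4.39, 14.8 and 18.0 CPM across Mdmx-Tg and 1.35, 2.39 and 1.48 CPM across Pu.1-URE-/-. No double-mutant library had a read, so the level was at least 90.9-fold lower than in Pu.1-URE-/-, against 1.61-fold lower in Mdmx-Tg than in Wild-type. Its unadjusted p was the smallest among the named genes (6.1e-05 by edgeR, adjusted p = 0.680; DESeq2 adjusted p = 1.52e-05). Fgf11 also had no read in the double mutant (at least 52.8-fold lower), and Zcchc18 had 8 reads there.

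The reverse, a smaller fold without the element, was seen in Degs2, Adcy3, Cxadr and Sncaip, all nearly absent from Mdmx-Tg. Degs2, an enzyme of ceramide synthesis, had 0.474, 1.71 and 1.64 CPM in the Wild-type libraries and no read in Mdmx-Tg, at least 71.4-fold lower. It stood at 31.6, 13.9 and 30.4 CPM in Pu.1-URE-/- and 26.2, 8.17 and 6.501 CPM in the double mutant, which overlapped. Adcy3, an adenylyl cyclase, was at least 63.7-fold lower in Mdmx-Tg than in Wild-type (0.597 to 2.24 CPM) and 1.68-fold lower in the double mutant than in Pu.1-URE-/-. Cxadr and Sncaip each had 1 read over Mdmx-Tg.

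Both targeted genes were checked in every library. Mdm4 stood at 77.9, 70.9 and 35.8 CPM across Wild-type, 535, 414 and 163 CPM across Mdmx-Tg, 93.9, 56.2 and 90.3 CPM in Pu.1-URE-/-, and 353, 163 and 210 CPM in the double mutant. All 6 transgenic libraries lay above the 6 others. The excess was 6.02-fold in the Wild-type background and 3.02-fold in Pu.1-URE-/-, with an interaction of -0.996 ± 0.64 (SE; 95% interval -2.39 to 0.40; edgeR unadjusted p = 0.145), so an equal excess was within the error. Every gene effect above is thus set against an excess that may differ between the backgrounds by an amount the data do not fix.

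Spi1 stood at 37.98, 5.34 and 8.08 CPM across Wild-type, 21.6, 13.5 and 3.69 CPM across Mdmx-Tg, 8.73, 8.73 and 23.9 CPM in Pu.1-URE-/-, and 3.48, 1.84 and 0.0198 CPM in the double mutant. The double mutant lay below every Pu.1-URE-/- library, a 7.74-fold lower mean, while Mdmx-Tg and Wild-type overlapped. The interaction was -2.55 ± 1.70 (SE; 95% interval -6.28 to 1.19; edgeR unadjusted p = 0.162). The position of the deleted element against the transcripts counted was not examined here, so this level is not used as a check of the deletion.

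The p53 pathway gave no interaction past the adjusted edgeR test. Trp53 had an interaction of 0.50 (edgeR unadjusted p = 0.202) and Mdm2 of -0.06 (edgeR unadjusted p = 0.885). Cdkn1a, the p21 cell cycle inhibitor induced by p53, stood at 10.9, 16.5 and 13.1 CPM across Wild-type, 12.95, 3.12 and 5.04 CPM across Mdmx-Tg, 25.9, 59.7 and 18.1 CPM in Pu.1-URE-/-, and 10.5, 16.1 and 4.90 CPM in the double mutant. Its mean was lower with the transgene in both backgrounds, 1.92-fold and 3.28-fold, and the interaction was -0.78 ± 0.88 (SE; edgeR unadjusted p = 0.394). Of 39 tested p53 target genes, 16 had an interaction above 0 and 23 below, with a median of -0.20, against 0.03 over all tested genes. Perp, a p53-induced membrane protein, and Phlda3, a p53-induced repressor of AKT, were the 2 members with an unadjusted p below 0.05. Perp stood at 1.24 to 1.93 CPM across Wild-type, 4.54 to 6.12 across Mdmx-Tg, 10.2 to 21.7 across Pu.1-URE-/- and 1.88 to 15.5 across the double mutant (interaction -2.39 ± 0.95, SE; edgeR unadjusted p = 0.0278). Phlda3 had no read in Mdmx-Tg and 0 to 5.38 CPM in Wild-type.

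Lists of genes were described by their counts and medians, beside 7737 genes above 0 and 7275 below over all tested genes. The granulocyte-monocyte progenitor and azurophil granule genes leaned below 0, with 24 of 27 tested members there and a median interaction of -0.79. Their median log2 transgene effect was 0.14 in the Wild-type background and -0.79 in Pu.1-URE-/-. None passed the adjusted edgeR test, and 4 had an unadjusted edgeR p below 0.05, Cebpa, Prtn3, Ap3s1 and Mgst1, all below 0. Prtn3, the azurophil protease proteinase 3, stood at 132, 87.3 and 156 CPM across Wild-type, 130, 166 and 132 CPM across Mdmx-Tg, 2855, 1406 and 2888 CPM in Pu.1-URE-/-, and 1580, 669 and 510 CPM in the double mutant. Wild-type and Mdmx-Tg overlapped fully, and Pu.1-URE-/- 2 lay below double mutant 1 (interaction -1.56 ± 0.59, SE; edgeR unadjusted p = 0.0223). Ap3s1, a vesicle adaptor subunit, stood at 13.6 to 44.4 CPM across Wild-type, 38.1 to 42.0 across Mdmx-Tg, 431 to 758 across Pu.1-URE-/- and 255 to 353 across the double mutant, which did not overlap the last (interaction -1.33, edgeR unadjusted p = 0.0242). Mgst1, a microsomal glutathione transferase, had an interaction of -1.59 (edgeR unadjusted p = 0.0418).

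Read as shares of a library, the 27 genes took 0.249% to 0.521% of the reads in Wild-type, 0.283% to 0.352% across Mdmx-Tg, 3.75% to 6.06% across Pu.1-URE-/- and 1.53% to 4.08% across the double mutant. Pu.1-URE-/- and the double mutant overlapped through Pu.1-URE-/- 2 and double mutant 1. The 28 neutrophil secondary granule and late genes took 2.98% to 9.09% across Pu.1-URE-/- and 2.64% to 3.31% across the double mutant, against 0.0361% to 0.0758% in the 6 libraries with the element. Their 22 tested members had a median interaction of -0.73 (-0.56 with members that lack reads in a genotype at their bound), 16 below 0. These shares are summed reads of the listed genes, so the progenitor share and the interaction of those genes rest on the same counts. They are no separate measure of cell numbers, whose part was not tested.

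The list called PU.1 and its partners, which also holds myeloid genes such as Lyz2 and Fcer1g, had 18 of 25 tested members below 0. Its median was -0.71. It shares Cebpa with the progenitor list and Lyz2 with the neutrophil list, so it is not separate from them. The members with an unadjusted p below 0.05 were Cebpa, Lyz2, Fcer1g and Ncf4 below 0 and Cd14 above 0. Lyz2, the myeloid lysozyme, stood at 189, 164 and 202 CPM across Wild-type, 343, 312 and 239 CPM across Mdmx-Tg, 1201, 360 and 753 CPM in Pu.1-URE-/-, and 318, 314 and 476 CPM in the double mutant. Mdmx-Tg lay wholly above Wild-type, and Pu.1-URE-/- 2 lay below double mutant 3. The log2 effects were 0.69 and -1.06 (interaction -1.75 ± 0.51, SE; edgeR unadjusted p = 0.00514, DESeq2 adjusted p = 0.0343). Fcer1g, the signalling chain shared by Fc receptors, stood at 27.1 to 44.7 CPM across Wild-type, 43.2 to 72.4 across Mdmx-Tg, 234 to 580 across Pu.1-URE-/- and 196 to 300 across the double mutant, with overlap in both backgrounds (interaction -1.53, edgeR unadjusted p = 0.00812). Ncf4, a subunit of the phagocyte oxidase, had an interaction of -1.63 (edgeR unadjusted p = 0.0226). Cd14, the monocyte lipopolysaccharide receptor, had no read in Pu.1-URE-/- and at most 4.96 CPM in any library.

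Stem cell genes held 15 members above 0 and 26 below of 41 tested, with a median of -0.19. Their median log2 transgene effect was 0.46 in the Wild-type background and 0.24 in Pu.1-URE-/-. The 5 with an unadjusted p below 0.05 were Cdkn1c, Tek, Hoxb5, Mecom and Sult1a1, all below 0. Mecom, which encodes the EVI1 transcription factor, stood at 35.8, 27.8 and 20.9 CPM across Wild-type, 116, 65.0 and 53.8 CPM across Mdmx-Tg, 7.79, 17.9 and 19.7 CPM in Pu.1-URE-/-, and 13.1, 14.3 and 19.6 CPM in the double mutant. All Mdmx-Tg libraries were above the other 9, and the 2 genotypes without the element overlapped fully. The log2 effects were 1.47 and 0.05 (interaction -1.42 ± 0.56, SE; edgeR unadjusted p = 0.0274, adjusted p = 0.843).

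Tek, the angiopoietin receptor of resting stem cells, stood at 24.0 to 33.4 CPM across Wild-type, 19.1 to 65.6 across Mdmx-Tg and 0 to 5.12 in Pu.1-URE-/-, and had 2 reads over the double mutant (edgeR unadjusted p = 0.00483). Hoxb5 stood at 2.88 to 4.22 CPM across Wild-type, 1.16 to 1.59 across Mdmx-Tg and 0 to 1.07 in Pu.1-URE-/-, with no read in the double mutant. Sult1a1, a sulfotransferase, stood at 4.34 to 26.1 CPM across Wild-type, 26.5 to 49.1 across Mdmx-Tg, 4.07 to 15.5 across Pu.1-URE-/- and 1.49 to 6.57 across the double mutant. For Tek, Hoxb5 and Sult1a1 the double mutant had the lowest mean of the 4 genotypes. The list as a whole did not share this, with a median log2 transgene effect of 0.24 in Pu.1-URE-/-. The 42 listed stem cell genes together took 0.323% to 0.391% of the reads in Wild-type, 0.378% to 0.672% across Mdmx-Tg, 0.140% to 0.313% across Pu.1-URE-/- and 0.266% to 0.348% across the double mutant.

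**Figure D4:**
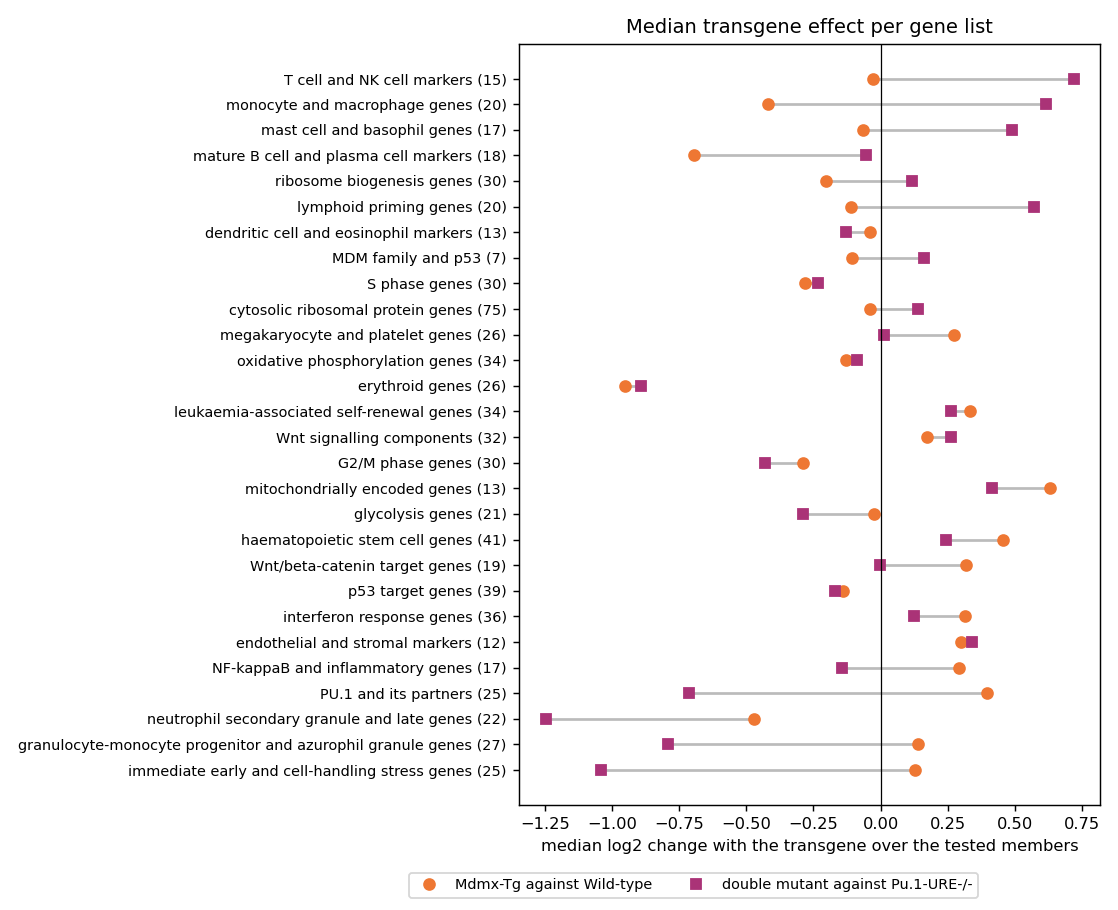
Median fitted log2 change with the transgene over the tested members of each gene list other than the Y-linked genes (number in brackets), as circles for Mdmx-Tg against Wild-type and squares for the double mutant against Pu.1-URE-/-, ordered by the median interaction. Medians of the lists drawn run from -0.95 to 0.63 in the Wild-type background and from -1.25 to 0.72 in Pu.1-URE-/-. For PU.1 and its partners the circle lies at 0.40 and the square at -0.71.

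The immediate early genes, listed with genes of cell-handling stress, had the lowest median, -1.30, with 21 of 25 tested members below 0. Only Klf6, a zinc-finger factor of the early response, had an unadjusted p below 0.05 (interaction -1.83 ± 0.72, SE; edgeR unadjusted p = 0.0266). Levels of these genes varied widely within genotypes. Fos, the AP-1 subunit, stood at 248, 168 and 9.77 CPM across Wild-type, 342, 265 and 64.4 CPM across Mdmx-Tg, 144, 229 and 472 CPM in Pu.1-URE-/-, and 124, 21.1 and 73.1 CPM in the double mutant (interaction -2.61, edgeR unadjusted p = 0.0860). It was lowest in Wild-type 3 and in double mutant 2, and it was named after its values were seen.

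Interferon response genes held 15 members above 0 and 21 below of 36 tested, with a median of -0.23. Oas1a, an antiviral oligoadenylate synthetase, stood at 33.7, 20.7 and 41.8 CPM across Wild-type, 53.4, 64.8 and 57.3 CPM across Mdmx-Tg, 9.999, 10.2 and 6.72 CPM in Pu.1-URE-/-, and 7.48, 10.2 and 6.54 CPM in the double mutant. Mdmx-Tg was above the other 9 libraries, as for Parp9, and the interaction was -1.02 ± 0.43 (SE; edgeR unadjusted p = 0.0370). Ddx58, the RNA sensor RIG-I, was the other member with an unadjusted p below 0.05 (interaction -0.96, edgeR unadjusted p = 0.0456).

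Genes of growth leaned slightly above 0. Of 30 ribosome biogenesis genes, 26 had an interaction above 0 (median 0.38), and none had an unadjusted p below 0.05. Their median transgene effect was -0.20 in the Wild-type background and 0.12 in Pu.1-URE-/-. Nop2, a ribosomal RNA methyltransferase, was chosen after its values were seen and stood at 127 to 128 CPM across Wild-type, 47.1 to 72.2 across Mdmx-Tg, 65.8 to 82.7 across Pu.1-URE-/- and 39.2 to 77.9 across the double mutant (interaction 0.76, edgeR unadjusted p = 0.0532). Cytosolic ribosomal protein genes held 61 of 75 above 0 with a median of 0.15, and Rpl3, Rps7 and Rps14 had an unadjusted p below 0.05. Rpl3 stood at 267, 277 and 866 CPM across Wild-type, 275, 350.1 and 852 CPM across Mdmx-Tg, 144, 227 and 167 CPM in Pu.1-URE-/-, and 550.4, 814 and 556 CPM in the double mutant (interaction 1.77, edgeR unadjusted p = 0.0315). The double mutant was above Pu.1-URE-/- in all 3 libraries, and replicate 3 stood high in both genotypes with the element. Ribosomal protein genes have many near-identical copies, so their estimates are uncertain.

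Cell cycle, Wnt and self-renewal lists lay near the median of all genes. S phase genes had a median of 0.16 with 20 of 30 above 0, and G2/M genes -0.08 with 9 of 30 above 0. Wnt/beta-catenin target genes had a median of -0.19 over 19 tested, and Wnt signalling components -0.05 over 32, with 0 members of these 4 lists at an unadjusted p below 0.05. Self-renewal genes tied to leukaemia had a median of 0.04 over 34, with Mecom and Men1 the 2 members at an unadjusted p below 0.05. Men1, the menin scaffold of MLL complexes, stood at 19.6 to 28.6 CPM across Wild-type, 19.98 to 43.1 across Mdmx-Tg, 46.7 to 76.9 across Pu.1-URE-/- and 16.5 to 40.2 across the double mutant, which did not overlap Pu.1-URE-/- (interaction -1.25 ± 0.53, SE; edgeR unadjusted p = 0.0395). Erythroid genes had median log2 transgene effects of -0.95 in the Wild-type background and -0.89 in Pu.1-URE-/-, and a median interaction of 0.08 over 26 tested. Their summed share of reads overlapped in both backgrounds, at 0.495% to 0.854% in Wild-type against 0.270% to 0.646% in Mdmx-Tg, and at 0.246% to 0.471% in Pu.1-URE-/- against 0.188% to 0.411% in the double mutant. Alas2, the erythroid enzyme of haem synthesis, was the member with an unadjusted p below 0.05 and had at most 1.99 CPM in any library (interaction 9.88, edgeR unadjusted p = 0.0149).

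Lists of mature cells differed in their share of reads. Mature B cell and plasma cell markers took 0.117% to 13.2% of a library and had a median interaction of 0.66 over 18 tested, 12 above 0, with Ighg1 below 0 the member at an unadjusted p below 0.05. T cell and NK cell markers had a median of 1.34 over 15 tested and together took 0.00630% to 0.0240% of the reads of a library, and 5 lacked reads in a genotype. Monocyte and macrophage genes had a median of 1.04 over 20 (0.89 with members that lack reads at their bound), with 14 above 0, and took 0.0413% to 0.350% of the reads. Axl and Cd14 above 0 and C1qa below 0 had an unadjusted p below 0.05. C1qa, a subunit of complement C1q, had 0.508 to 4.56 CPM across Wild-type, 0.144 to 0.863 across Mdmx-Tg and 0 to 1.57 across Pu.1-URE-/-, with no read in the double mutant (interaction -6.39, edgeR unadjusted p = 0.0357). Axl, a receptor kinase of macrophages, stood at 22.2, 8.98 and 10.7 CPM across Wild-type, 3.85, 5.57 and 5.86 CPM across Mdmx-Tg, 3.01, 6.76 and 2.48 CPM in Pu.1-URE-/-, and 8.14, 7.37 and 3.55 CPM in the double mutant (interaction 2.09 ± 0.83, SE; edgeR unadjusted p = 0.0281). Mdmx-Tg lay below Wild-type, and the 2 genotypes without the element overlapped. The 4 Y-linked genes each had an interaction above 0 with an unadjusted p below 0.05, which follows the libraries with high Y-linked reads named above.

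The double mutant was also set against the level that the product of the single folds gives. Of 36 named genes with at least 100 reads in every genotype, 25 had a measured mean below that level and 11 above it. Among the lowest were Thbs1, which encodes the matrix protein thrombospondin 1 (36.9 ± 8.81 CPM measured, 241 from the product), and Cebpa. Among the highest were Cpa3 (365 ± 74.1 CPM, 56.8 from the product), Sp4 (18.7 ± 3.82 CPM, 4.02) and Edrf1 (21.9 ± 2.89 CPM, 5.13). These genes were named for a small interaction p, apart from Mdm4, Spi1, Mdm2, Trp53 and Cdkn1a, so the distance itself is no test.

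**Figure D5:**
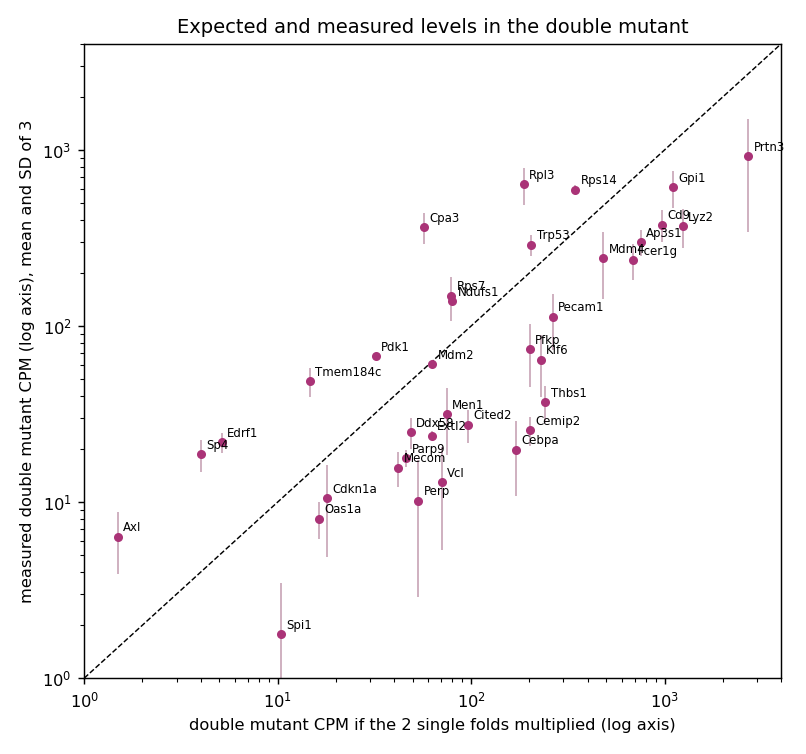
Measured double-mutant mean (vertical log axis, CPM, bars are SD of 3 libraries) against the level that the product of the single folds gives (horizontal log axis, CPM) for 36 named genes. The dashed diagonal marks equal levels, and the lower bar of Spi1 runs past the axis. Below the diagonal lie 25 genes, and 11 lie above it.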

How the data were processed

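Polyadenylated RNA of sorted bone marrow cells was sequenced as paired-end reads on the BGISEQ-500, per the labels' protocols, in 12 libraries. The deposited files hold expected counts (estimated counts per transcript, not normalized), and the submitters' processing notes name Salmon, FastQC and DESeq2 and give mm10 and GRCm38 as builds, without versions or settings. Here 115995 of 116248 transcripts (99.8%) were matched to GENCODE M21, and their counts were summed per gene and rounded. Genes with too few reads were dropped (minimum count 10 and total 15). TMM scaling factors were used, and 1 mean per genotype was fitted by edgeR 4.0.16 (quasi-likelihood, limma 3.58.1, R 4.3.3), with two-sided tests adjusted by the Benjamini-Hochberg method over 15012 genes at 0.05. CPM are TMM-scaled, folds are ratios of mean CPM, and log2 effects are fitted. Folds against a genotype without reads use a floor of 3 reads over the group, which leaves out the spread between animals. The fit was tried on simulated counts with known folds. Those counts had a smaller spread between libraries than these data, and folds were placed only in genes with reads in every genotype. They do not show what can be recovered here.

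Named genes were Mdm4, Spi1, Mdm2, Trp53 and Cdkn1a, up to 6 protein-coding genes per shape with the smallest unadjusted p, and up to 3 members per list with an unadjusted p below 0.05. Predicted, immunoglobulin and Y-linked genes were not named for a shape but are in the counts of the shapes. Not all genes so chosen are described. The members, the 29 lists and the rules were chosen with earlier results of these data known. Lists share members. Alternatives were DESeq2 1.42.0, limma-voom, other scaling and filters, blocks by replicate or mouse number, a sex covariate, robust estimation, immunoglobulin genes left out and libraries left out. Leaving out 3 doubted libraries, or 3 with high Y-linked reads, was added after seeing the data. Promoters are from RefSeq (GRCm38.p6).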

Additional observations from a re-analysis of the deposited data

How the results depend on the processing

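The interaction count was 0 under every edgeR and limma-voom setting and with each library left out, and 194 by DESeq2. The transgene effect gave 0 calls in the Wild-type background except 329 by DESeq2 and, with 1 library left out, 0 to 109 (109 without Mdmx-Tg 3, and 1 without Mdmx-Tg 1 or Wild-type 3). In Pu.1-URE-/- it gave 0 except 329 by DESeq2, 1 without Wild-type 1, Mdmx-Tg 2 and double mutant 3 together, and 0 to 4 with 1 library left out (4 without double mutant 2).

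The numbers of opposite, masked, unmasked, more-than-additive and less-than-additive genes were 46, 23, 20, 5 and 5. They became 111, 43, 51, 17 and 20 by DESeq2, and 26, 8, 7, 0 and 2 with Y-linked expression as a covariate. With limma-voom the last 3 were 7, 1 and 3. With a block by mouse number series, masked, more and less were 1, 1 and 2. More-than-additive genes were 3 with robust estimation. Without the 3 doubted libraries, opposite, unmasked, more and less were 85, 11, 3 and 9. Without the 3 libraries with high Y-linked reads, masked, unmasked and more were 3, 34 and 8. With 1 library left out the ranges were 37 to 116, 11 to 102, 8 to 66, 1 to 17 and 2 to 19. The cause was not tested.

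The replicate numbers did not pair the libraries: none of 18 same-number pairs of deviations correlated above 0.1 (-0.153 to 0.0856), and 4 of 12 libraries correlated best with their own number. With a replicate block the interaction count was 0, and more and less were 2 and 3.

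Signs of named genes turned as follows. The interaction of Trp53 was -0.0785 with the mouse number block, and the interaction of Mdm2 was 0.0427 with limma-voom. With 1 library left out, Mdm2 lay between -0.32 and 0.27, the interaction of Cd177 between -7.12 and 0.0925 and the interaction of Cd14 between -0.52 and 7.89. Within the 1 series of mouse numbers that holds a library of every genotype (a value with no test), Ighg1 was 4.37, Fgf11 0.70, Hoxb5 1.39 and Cd14 -2.34. On the linear scale, in CPM, Paqr9 was 5.78, Degs2 -10.4, Adcy3 -0.577, Gdf3 7.66, Tnfrsf13c 3.49, Cxadr -5.31, Fgf11 1.19, Zcchc18 2.57, Sncaip -2.29, Hoxb5 1.73, Phlda3 -0.496, C1qa 0.907 and Cd14 -0.513.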

Other observations

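Metabolic genes outside the lists described above held a few members with an unadjusted interaction p below 0.05 by edgeR, none past adjustment. Gpi1, the glycolytic isomerase, stood at 183 to 236 CPM across Wild-type and 195 to 220.0 across Mdmx-Tg. Without the element it stood at 648 to 1370 CPM, or 510.3 to 783 CPM with the transgene, and Pu.1-URE-/- 2 lay below double mutant 1 (interaction -0.85 ± 0.38, SE; edgeR unadjusted p = 0.0466). Pdk1, the kinase that holds pyruvate dehydrogenase inactive, stood at 19.4 to 50.8 CPM across Pu.1-URE-/- and 65.4 to 68.6 across the double mutant, without overlap, and at 41.6 to 61.5 and 39.0 to 58.4 CPM in Wild-type and Mdmx-Tg (interaction 1.07 ± 0.45, SE; edgeR unadjusted p = 0.0356). Ndufs1, a subunit of respiratory complex I, stood at 142, 199 and 173 CPM across Wild-type, 89.97, 101 and 152 CPM across Mdmx-Tg, 126, 112 and 121 CPM in Pu.1-URE-/-, and 131, 147 and 137 CPM in the double mutant (interaction 0.79 ± 0.30, SE; edgeR unadjusted p = 0.0228). The 13 mitochondrially encoded genes had median log2 transgene effects of 0.63 in the Wild-type background and 0.42 in Pu.1-URE-/-, with a median interaction of -0.15.

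Members of the megakaryocyte and platelet list and of the endothelial and stromal list went both ways. Cd9, a tetraspanin, stood at 95.5 to 121 CPM across Wild-type, 139 to 225 across Mdmx-Tg, 313 to 772 across Pu.1-URE-/- and 288 to 437 across the double mutant (interaction -1.37 ± 0.44, SE; edgeR unadjusted p = 0.00959). Pecam1, which encodes the adhesion receptor CD31, stood at 14.9 to 29.2, 27.2 to 47.6, 126 to 216 and 77.3 to 156 CPM in the same order (interaction -1.22 ± 0.49, SE; edgeR unadjusted p = 0.0303). Above 0 were Tubb1, a platelet tubulin with no read in Mdmx-Tg and Pu.1-URE-/- and at most 3.27 CPM elsewhere (edgeR unadjusted p = 0.0132), and Sparc, a matrix protein at 3.81 to 5.67 CPM in the double mutant and at most 2.65 CPM elsewhere (interaction 6.95 ± 2.55, SE; edgeR unadjusted p = 0.0195). The megakaryocyte list as a whole had a median of 0.11 over 26 tested members, with 14 above 0, and the endothelial list had -0.36 over 12, with 5 above 0.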
